A study of Saccharomyces cerevisiae with 3 samples.

Results

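The zinc homeostasis genes linked to the regulator Zap1 were followed through 3 yeast strains, with 10 genes taken by gene symbol (*ZAP1*, *ZRT1*, *ZRT2*, *ZRT3*, *ZRC1*, *COT1*, *IZH1*, *IZH2*, *ADH4* and *ZPS1*) of 5449 *S. cerevisiae* genes measured. The strains were the wild type (WT), a strain lacking *SPT3* (*spt3Δ*) and a strain lacking *SPT8* (*spt8Δ*), and the labels name BY4742 as the background of each. The study's strain list gives each deletion as a replacement with *KanMX*, a drug resistance cassette that its WT does not carry. That list is of *MATa* strains with *met15* deleted, and the genotype labels of the arrays name the deletions only. Whether the arrayed strains carried *KanMX* is therefore not established. All strains grew at 30 °C in 5 mL of the rich medium YPD to an optical density of 0.7, and no zinc supplement or chelator is named. RNA of each strain was hybridized to 1 Affymetrix Yeast Genome 2.0 array, so differences between strains have no replicate error and no p-value was computed. Spt3 and Spt8 are subunits of SAGA, a coactivator complex that delivers TATA-binding protein to promoters, and the comparison asks which transcripts depend on them.

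Zap1 is the activator through which budding yeast responds to a shortage of zinc. It binds zinc-responsive elements in its target promoters when cellular zinc falls, and it also activates its own gene. Its targets import zinc at the plasma membrane, move zinc between the cytosol and the vacuole, where the metal is stored, and include proteins that help cells live on little zinc. In zinc-rich medium Zap1 is mostly inactive.

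Each value is the signal of 1 probe set on the linear MAS 5.0 scale, which the authors scaled so that the arrays had nearly equal trimmed means. Signals of different genes cannot be compared with each other, and comparisons here are between arrays for 1 gene. Each of the 10 genes was read by a single probe set that the array does not share between genes. All 10 were above background on all 3 arrays, where background is the 95th percentile of the fission yeast probe sets on the same array (7.17 in WT, 6.67 in *spt3Δ*, 8.61 in *spt8Δ*), and the member nearest to it was still 10.4-fold above. The fission yeast probe set named *zrt1* read 3.59, 2.76 and 0.607 on the same arrays, and that named *adh4* read 9.12, 3.69 and 6.02, above background in WT only. The deleted genes were not above background in their own mutants, with *SPT3* at least 43.2-fold below WT and *SPT8* at least 40.2-fold below. *LYS2*, which BY4742 lacks, was not above background on any array, and *MET17* (*MET15*), which the study's strain list gives as deleted, was above it on all 3.

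Of the 10 genes, 8 had a lower signal in *spt3Δ* than in WT and 7 in *spt8Δ*. Among all genes 38.8% and 41.1%, respectively, lay below WT. The median log2 ratio of the 10 genes was −0.53 in *spt3Δ*, against 0.15 for all genes, and −0.21 in *spt8Δ*, against 0.067 for all genes. The threshold was set at 2 SD of the log2 ratios of all genes on either side of their mean, which put its lower side at −1.26 in *spt3Δ* and −0.91 in *spt8Δ*. Only *ZRT1* in *spt3Δ* met it, 1 of 10 beside 2.73% of all genes called lower. In *spt8Δ* none of the 10 did, beside 2.13% of all genes called lower and 1.63% called higher, and none was called higher in *spt3Δ* (0.973% of all genes). With a robust SD, taken from the median absolute deviation, *ZRT1* and *IZH1* were past the lower side in *spt8Δ* (2 of 10, beside 5.62% of all genes) and *ZRT1* alone in *spt3Δ* (beside 4.86%). At 2-fold, *ZRT1* in *spt3Δ* was again the 1 gene called, beside 4.2% of all genes. With the lower side at fixed ratios to WT, *ZRT1* was called in *spt3Δ* at 0.46 (1 of 10, beside 3.43% of all genes) and in *spt8Δ* at 0.59 (1 of 10, beside 2.99%). The genes were chosen by their names with the signal ratios of these same arrays to WT already known, so the counts describe them and test nothing.

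**Figure D1:**
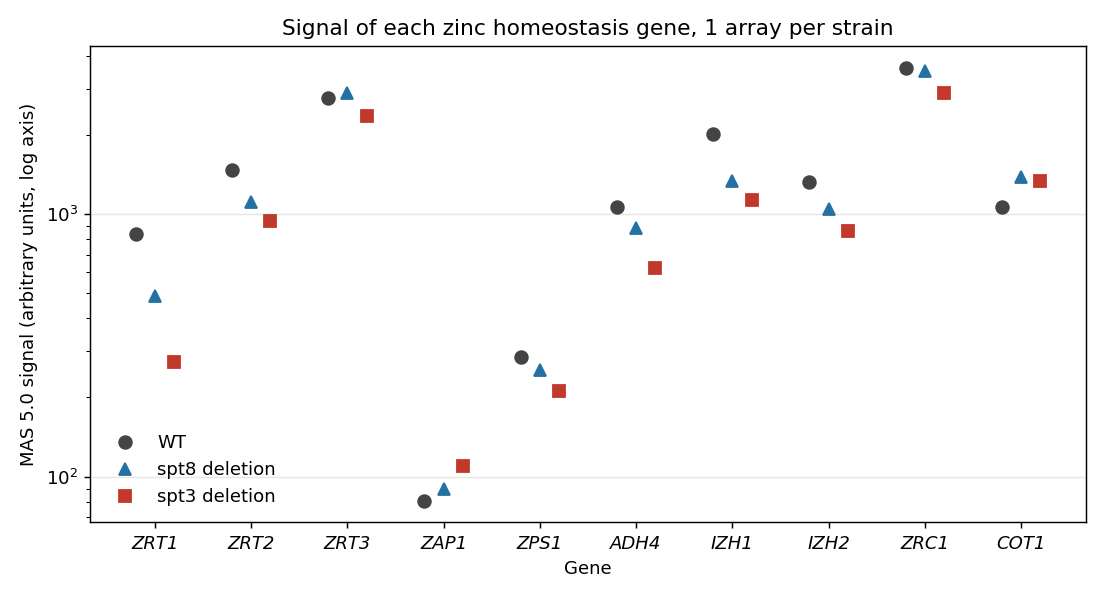
MAS 5.0 signal (log axis) of each of the 10 genes on the WT, *spt8Δ* and *spt3Δ* arrays, 1 point per array. *ZRT1* is the most spread, from 838 in WT to 274 in *spt3Δ*, while *ZAP1* and *COT1* are lowest in WT.

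The regulator itself was not lower in either mutant. *ZAP1* had a signal of 81.0 in WT, 109 in *spt3Δ* and 89.7 in *spt8Δ*. It was 1.35-fold above WT in *spt3Δ* (log2 0.43) and 1.11-fold above it in *spt8Δ* (log2 0.15). The difference from WT in *spt8Δ* is below 0.20, the typical gap in log2 ratio between probe sets that read the same gene (median over 47 genes), which is a spread within arrays and not an error between cultures.

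Of the zinc uptake genes *ZRT1* and *ZRT2*, only *ZRT1* in *spt3Δ* was lower past the threshold. *ZRT1* encodes the high-affinity zinc transporter, the best known target of Zap1. Its signal, 838 in WT, compared with 274 in *spt3Δ* and 487 in *spt8Δ*, so that the *spt8Δ* array lay between the others. This is 3.06-fold below WT in *spt3Δ* (log2 −1.61) and 1.72-fold below it in *spt8Δ* (log2 −0.78). Only 1.80% of all genes had a ratio as low or lower in *spt3Δ*, and 2.88% did in *spt8Δ*. *ZRT2*, the low-affinity transporter, had signals of 1464, 939 and 1107 in WT, *spt3Δ* and *spt8Δ*. It was 1.56-fold below WT in *spt3Δ* and 1.32-fold below it in *spt8Δ*, neither past the threshold. The log2 ratio of *ZRT1* lay 0.97 below that of *ZRT2* in *spt3Δ* and 0.38 below it in *spt8Δ*.

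Genes for vacuolar zinc transport stayed nearer to WT. *ZRC1*, whose product carries zinc into the vacuole, had signals of 3609 in WT, 2897 in *spt3Δ* and 3502 in *spt8Δ*. It was 1.25-fold below WT in *spt3Δ* and 1.03-fold below it in *spt8Δ*, where WT and *spt8Δ* were nearly equal. *COT1*, a related vacuolar transporter that also protects against cobalt, read 1060 in WT, 1337 in *spt3Δ* and 1384 in *spt8Δ*. It was 1.26-fold above WT in *spt3Δ* and 1.31-fold above it in *spt8Δ*, both mutants lying above WT. *ZRT3*, which releases zinc from the vacuole to the cytosol, read 2755, 2364 and 2893 in WT, *spt3Δ* and *spt8Δ*. Its ratio was 1.17-fold below WT in *spt3Δ* and 1.05-fold above it in *spt8Δ*, where it turned to a log2 ratio of −0.027 when arrays were centred on the median gene. The log2 ratio of *ZRC1* lay 0.65 below that of *COT1* in *spt3Δ* and 0.43 below it in *spt8Δ*.

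The *IZH* genes encode membrane proteins of the progestin and adipoQ receptor family that affect zinc homeostasis. *IZH1* had signals of 2009 in WT, 1132 in *spt3Δ* and 1334 in *spt8Δ*. After *ZRT1* it had the lowest deposited ratio of the 10 genes in both mutants (in *spt3Δ* *ADH4* was lower after loess scaling), 1.77-fold below WT in *spt3Δ* (log2 −0.83) and 1.51-fold below it in *spt8Δ* (log2 −0.59). *IZH2* read 1324, 863 and 1042 in the same order of strains. It was 1.53-fold below WT in *spt3Δ* and 1.27-fold below it in *spt8Δ*, with WT highest for both genes. The family members *IZH3* and *IZH4* were measured too. *IZH3* was 1.15-fold below WT in *spt3Δ* and 1.02-fold below it in *spt8Δ*, and *IZH4* was 1.21-fold below WT in *spt3Δ* and 1.53-fold above it in *spt8Δ*, none past the threshold.

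*ADH4* encodes an alcohol dehydrogenase unrelated in sequence to the main fermentative enzyme and is made when zinc is scarce. Its signal of 1062 in WT compared with 624 in *spt3Δ* and 888 in *spt8Δ*. It was 1.70-fold below WT in *spt3Δ* and 1.20-fold below it in *spt8Δ*. *ZPS1*, a cell surface protein gene regulated by zinc and pH, read 286 in WT, 212 in *spt3Δ* and 255 in *spt8Δ*, or 1.35-fold and 1.12-fold lower. For both genes the *spt8Δ* array lay between WT and *spt3Δ*.

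The ratios depended on how the arrays were scaled, since in *spt3Δ* genes of middling signal tended to lie above WT. The brightest and the dimmest genes tended to lie below it. An intensity-dependent (loess) scaling takes this trend out and moved the median log2 ratio of all genes from 0.15 to −0.0057 in *spt3Δ*, a shift of 0.16, and from 0.067 to −0.0026 in *spt8Δ*. The same 8 genes in *spt3Δ* and 7 in *spt8Δ* stayed below 0, beside 50.5% and 50.4% of all genes. The median of the 10 genes became −0.78 in *spt3Δ* and −0.32 in *spt8Δ*. The trend at the signal of *ZPS1* was 0.34 in *spt3Δ*, so its log2 ratio went from −0.44 to −0.78. For *ADH4* the value went from −0.77 to −0.98 and for *ZRT1* from −1.61 to −1.89. The bright *ZRT3* and *ZRC1* moved little, to −0.22 and −0.26. *ZAP1* and *COT1* stayed above 0 in *spt3Δ*, at 0.24 and 0.19.

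**Figure D2:**
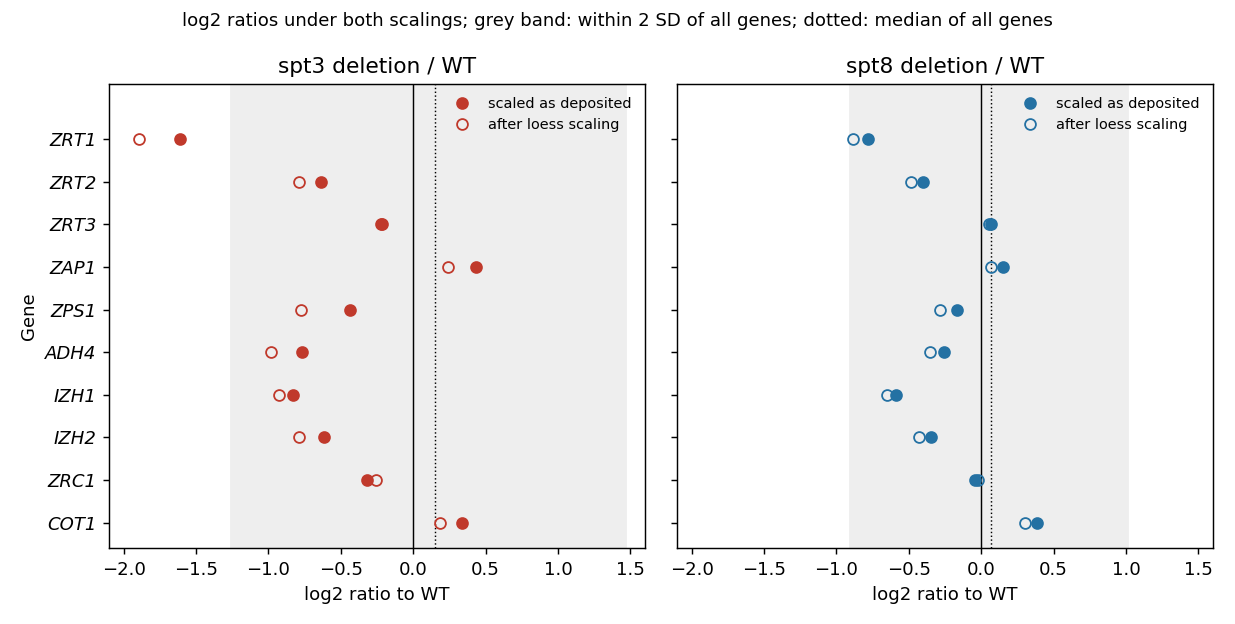
log2 ratio to WT of each gene in *spt3Δ* and *spt8Δ*, as deposited (filled) and after loess scaling (open). The grey band spans 2 SD around the mean of all genes as deposited (from −1.26 in *spt3Δ* and −0.91 in *spt8Δ*), and only *ZRT1* in *spt3Δ* lies outside it on that scale.

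**Figure D3:**
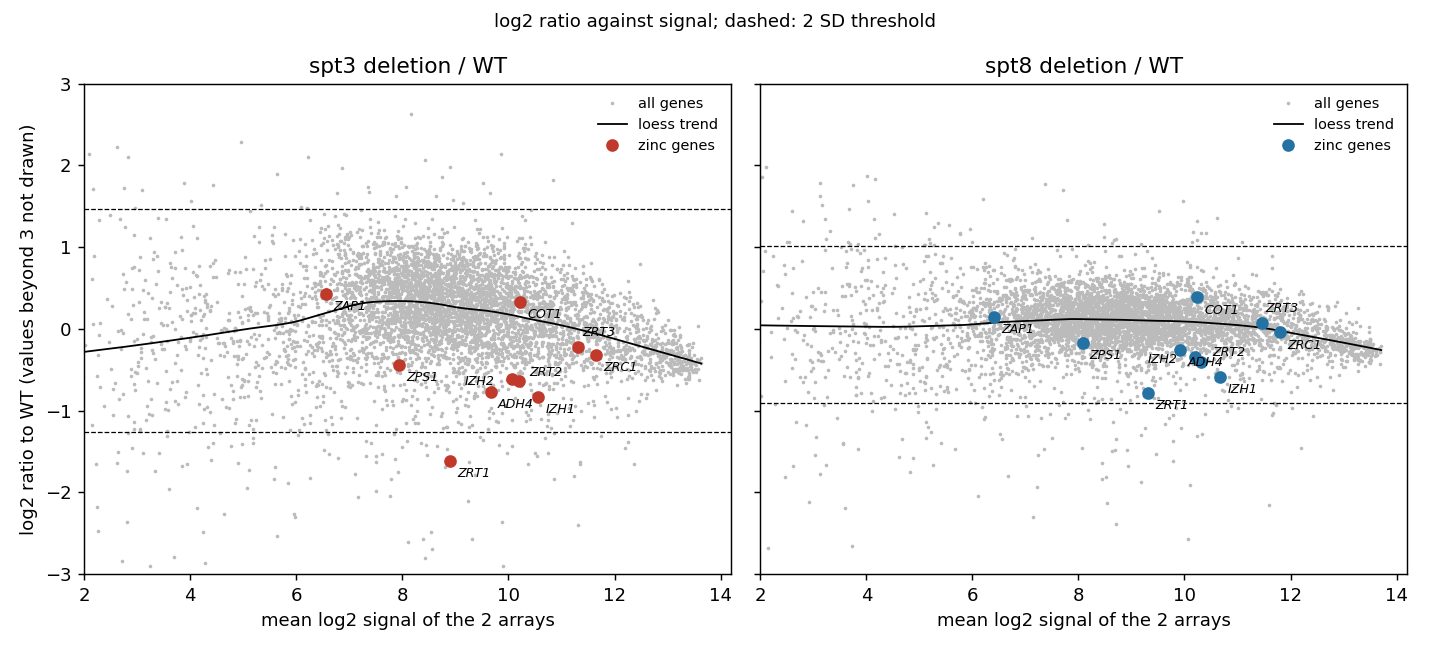
log2 ratio to WT of all genes (grey, those beyond the axes not drawn) against their mean log2 signal, with the loess trend and the 10 zinc genes. In *spt3Δ* the trend lies above 0 for most signals, 0.28 at the signal of *ZRT1*. It lies below 0 for the brightest genes and for dim ones, −0.15 at the signal of *VEL1* (16.7 in WT).

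A direct comparison put most of the genes lower without Spt3 than without Spt8. Of the 10 genes, 9 had a lower signal in *spt3Δ* than in *spt8Δ*, beside 41.1% of all genes, and the exception was *ZAP1* at 1.22-fold higher. Over *spt8Δ*, the median log2 ratio of *spt3Δ* was −0.27 over the 10 genes and 0.086 over all genes. *ZRT1* was 1.78-fold lower in *spt3Δ* than in *spt8Δ* and *ADH4* 1.42-fold lower. *COT1* was 1.04-fold lower. None of the 10 was past 2 SD, beside 2.62% of all genes called lower and 0.844% called higher, and with a robust SD *ZRT1* was, beside 5.43%.

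The genes lay on 7 chromosomes, and 3 of them were among the 12 outermost probed genes of an arm. *ADH4* and *ZRT1* are next to each other at places 7 and 8 from the left end of chromosome VII, and *ZPS1* is at place 11 from the left end of chromosome XV. Gene order was taken from the R64 assembly. On chromosome VII the 5 outermost probed genes all lay below WT in *spt3Δ*, 3 of them not above background on every array. *COS12*, a subtelomeric membrane protein gene at place 1, read 228 in WT, 16.5 in *spt3Δ* and 107 in *spt8Δ*. *VEL1*, a Zap1 target at place 5, was near background, at 16.7, 8.4 and 11.6. *MNT2*, a mannosyltransferase gene and Zap1 target that lies just outside *ADH4*, read 368 in WT, 400 in *spt3Δ* and 403 in *spt8Δ*. *FZF1*, a sulfite resistance regulator gene just inside *ZRT1*, was 1.20-fold above WT in *spt3Δ* and 1.19-fold above it in *spt8Δ*. After loess scaling *MNT2* was at −0.19 and *FZF1* at −0.04 in *spt3Δ*, still nearer to WT than *ADH4* and *ZRT1*. Of the 12 neighbors here, 2 were called lower in *spt3Δ* (beside 2.73% of all genes) and 1 in *spt8Δ* (beside 2.13%). *COS12* was called in both mutants. The other call in *spt3Δ*, *YGL262W* at place 2, read 10.9 in WT and was not above background in *spt3Δ*. It was at least 1.63-fold below WT there, a bound short of the 2.40-fold of the threshold.

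On chromosome XV the neighbors of *ZPS1* differed in direction. *FRE7*, a copper-regulated ferric reductase gene just inside it, read 289 in WT, 30.3 in *spt3Δ* and 115 in *spt8Δ*, 9.56-fold and 2.52-fold lower. *HPF1*, a cell wall mannoprotein gene on the other side, was 1.73-fold above WT in *spt3Δ* and 1.10-fold below it in *spt8Δ*. *ENB1*, for siderophore uptake, was 3.08-fold lower in *spt3Δ*, and *HXT11*, a hexose transporter gene, was 2.71-fold higher there, short of the threshold, and 2.68-fold higher in *spt8Δ*, past it. Of the 12 neighbors on this arm, 2 were called lower in *spt3Δ* (beside 2.73% of all genes), and 1 lower and 1 higher in *spt8Δ* (beside 2.13% and 1.63%). The part of chromosome position in the ratios of *ZRT1*, *ADH4* and *ZPS1* was not tested. The other 7 members lay at places 44 to 291 from an end. None of them was past the threshold of 2 SD in either mutant, and neither was *ADH4* or *ZPS1*.

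**Figure D4:**
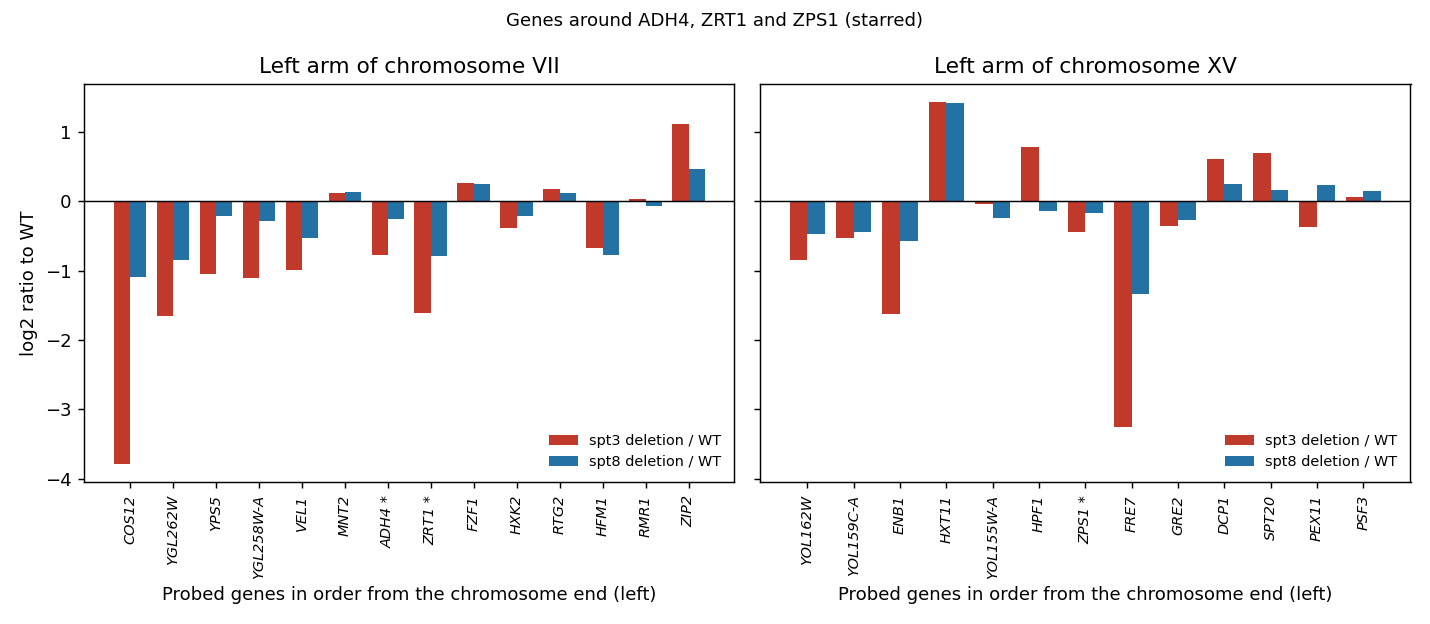
log2 ratio to WT in *spt3Δ* and *spt8Δ* (bars) of the probed genes around *ADH4* and *ZRT1* on chromosome VII and around *ZPS1* on chromosome XV, in order from the chromosome end. *MNT2* and *FZF1*, on either side of the *ADH4* and *ZRT1* pair, lie above 0 in both mutants as deposited, and at −0.19 and −0.04 in *spt3Δ* after loess scaling.

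Of 19 Zap1 targets measured outside the member list, none was past the threshold in *spt3Δ*, beside 2.73% of all genes called lower and 0.973% called higher. In *spt8Δ* 1 of the 19 was lower past it, beside 2.13% of all genes. That gene was *ATG41* (*ICY2*), an autophagy gene, which read 1409 in WT, 1157 in *spt3Δ* and 547 in *spt8Δ*, 2.58-fold lower there. The median over the 19 was −0.27 (*spt3Δ*) and −0.22 (*spt8Δ*) on the log2 scale, and 11 and 13 of the 19 were below 0, beside 38.8% and 41.1% of all genes. After loess scaling the medians were −0.19 and −0.21, with 15 and 13 of the 19 below 0 beside 50.5% and 50.4%. *PST1*, a cell wall protein gene, was 1.99-fold below WT in *spt3Δ* and 1.54-fold below it in *spt8Δ*. *RAD27*, which encodes a nuclease that processes Okazaki fragments, was 1.89-fold above WT in *spt3Δ* and 1.33-fold above it in *spt8Δ*. *FET4*, a low-affinity transporter of iron that also carries zinc, was 1.07-fold and 1.24-fold higher.

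A further list held 15 genes, transporters of zinc and other metals together with *IZH3* and *IZH4*. None was past the threshold in either mutant. The medians were −0.20 in *spt3Δ* and −0.023 in *spt8Δ*, which loess scaling moved to −0.32 and −0.13. *ZRG17*, *FET4* and *IZH4* are also among the Zap1 targets above. *ZRG17* and *MSC2*, whose products form the zinc transporter of the endoplasmic reticulum, were 1.17-fold higher (log2 −0.11 after loess scaling) and 1.17-fold lower in *spt3Δ*, and 1.08-fold and 1.16-fold lower in *spt8Δ*. *PHO84*, a phosphate transporter that also takes up metals, was 1.52-fold below WT in *spt3Δ* and 1.68-fold below it in *spt8Δ*. Loess scaling moved its log2 ratios from −0.60 and −0.75 to −0.32 and −0.61.

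Alcohol dehydrogenases other than *ADH4* were compared because zinc-poor cells replace the abundant zinc enzyme *ADH1*. *ADH1* was 1.34-fold below WT in *spt3Δ* and 1.18-fold below it in *spt8Δ*, and its mitochondrial relative *ADH3* was 1.35-fold and 1.26-fold lower. Both are bright, and after loess scaling *ADH1* was at −0.088 and −0.032 on the log2 scale and *ADH3* at −0.22 and −0.21. Of the 7 genes, *ADH7* alone was past the threshold, in *spt3Δ* (1 of 7, beside 2.73% of all genes called lower). It was at least 8.0-fold below WT there, where it was not above background. *ADH7* is at place 4 from the right end of chromosome III. Of 12 genes for zinc-dependent enzymes, *ADH1* and *ADH3* among them, none was past the threshold in either mutant. The medians were −0.42 and −0.21, which loess scaling moved to −0.19 and −0.15. *SOD1*, the copper and zinc superoxide dismutase, was 1.55-fold below WT in *spt3Δ* and 1.39-fold below it in *spt8Δ*. It is bright too, and loess scaling moved its log2 ratios from −0.63 and −0.47 to −0.35 and −0.30. *NCE103*, the carbonic anhydrase, was 1.85-fold and 1.47-fold higher.

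**Figure D5:**
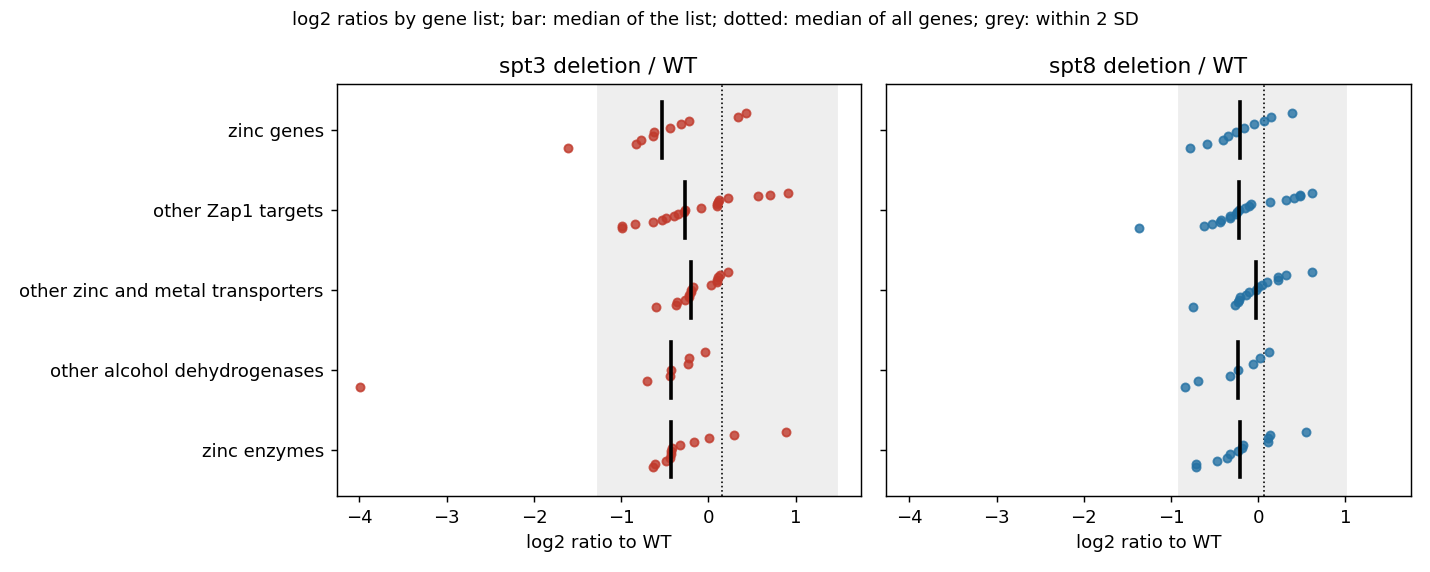
log2 ratio to WT in *spt3Δ* and *spt8Δ* by gene list, 1 point per gene with the list median as a bar. The lists hold 10 zinc genes, 19 Zap1 targets outside them, 15 other zinc and metal transporters, 7 other alcohol dehydrogenases and 12 zinc enzymes. The medians of the zinc genes are −0.53 and −0.21, and the points outside the grey 2 SD band are *ZRT1* and *ADH7* in *spt3Δ* and *ATG41* in *spt8Δ*. Lists overlap. *ZRG17*, *FET4* and *IZH4* are in both the Zap1 target and transporter lists. *ADH1* and *ADH3* are in both the dehydrogenase and zinc enzyme lists.

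Genes most like *ZRT1* were looked for by the Euclidean distance of their pair of log2 ratios, over 5267 other genes above background on all 3 arrays. The nearest was *DAL4*, an allantoin permease gene, at a distance of 0.0059, followed by *YER187W* at 0.027 and *GLK1*, a glucokinase gene, at 0.12. *DAL4* was dim, at 36.8 in WT, 12.1 in *spt3Δ* and 21.4 in *spt8Δ*. So was *YER187W*, at 52.4, 16.9 and 30.2, which is at place 2 from the right end of chromosome V. *GLK1* read 2442 in WT, 851 in *spt3Δ* and 1339 in *spt8Δ*. Within 0.25 of *ZRT1* lay 21 genes, none of them a member. After loess scaling 8 genes did, again with no member, and the 3 named had moved out to 0.36, 0.28 and 0.26.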

How the data were processed

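Total RNA, 1 sample per strain, was amplified and hybridized to GeneChip Yeast Genome 2.0 arrays. The authors made the deposited intensity values with MAS 5.0 at its default settings, 1 background-corrected linear signal per probe set, scaled per array. The submitters' processing notes also name Affymetrix Expression Console, and neither versions nor a genome build were given in the sources used here. Detection calls were not used here. Of 10928 probe sets, 5498 were named for *S. cerevisiae* through the platform annotation and the R64 gene table, which gave 5449 genes after averaging on the log2 scale. R64 served for names and gene order only, and no sequence was read. Ratios were log2 differences between arrays, with no pseudocount. The number of arrays limits the precision. A gene above background on only 1 of the arrays compared has a fold of at least its bright signal divided by the larger of the dim array's signal and background.

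The use of 2 SD about the mean follows the study. Limits computed here on log2 ratios differ from the ratios the study gives for its own lower limits. In *spt3Δ* the limits used here called 149 genes lower, the count the study gives, while its ratio of 0.46 called 187. In *spt8Δ* they called 116, fewer than the study gives, and its ratio of 0.59 called 163, more than it gives. The study's ratios were tried as an alternative, a choice made after seeing the data. The members, the gene lists and the alternatives were chosen with earlier results of these data known. The genes named were the 10 members, *SPT3* and *SPT8*, listed genes past the threshold or otherwise with the largest ratios, up to 6 neighbors on each side of members among the 12 outermost genes of an arm, and the 3 genes nearest to *ZRT1*. Other listed genes were picked after their values were seen. Loess used a span of 0.3 (statsmodels 0.14.6, Python 3.11.15). The ratio, call and scaling steps were tested on simulated arrays with the same noise at every signal and no intensity-dependent trend. The removal of such a trend was thus not tested.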

Additional observations from a re-analysis of the deposited data

How the results depend on the processing

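With 1 array per strain, no replicate could be left out. *ZRT1* in *spt3Δ* stayed past the lower threshold under every scaling, filter and threshold tried, with log2 ratios from −1.89 to −1.45, and no other member was past it there. The median log2 ratio of the 10 genes in *spt3Δ* was −0.76 with arrays centred on the median of their *S. cerevisiae* genes, −0.74 with quantile and −0.78 with loess normalization. In *spt8Δ*, 2 genes (*ZRT1* and *IZH1*) were past the lower threshold with 50 added to each signal (beside 2.50% of all genes) and 2 with a robust SD, and 1 (*ZRT1*) with genes above background only (beside 2.71%). Between the mutants, 1 (*ZRT1*) was past it with 50 added (beside 2.40% of all genes), 1 with a robust SD (beside 5.43%) and 1 with genes above background only (beside 2.79%). In these settings the spread of all genes, and so the threshold, is narrower. With the study's ratios to WT as limits, an alternative chosen after seeing the data, 1 gene (*ZRT1*) was past 0.59 in *spt8Δ* (beside 2.99%). Under the 3 other scalings and with 50 added, 15 of 40 values of single genes in *spt3Δ* moved by more than 0.21. Of 40 in *spt8Δ* none did, and of 40 between the mutants 1 did. The 15 include all 10 genes under median centring, which moves each of them by the same amount. Of all these values 1 changed in sign, *ZRT3* in *spt8Δ*, which was −0.027 after median centring. The filter on background and leaving out shared probe sets cannot change a member's own ratio.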
